A study of Mus musculus with 96 samples.

Results

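Among the nuclei sorted from the 2N+ gate of the mouse line KPC1199EGFP, some carried 3 copies of nearly all of chromosome 5 and others carried 2. The 2 sets were chosen by a measured value, the ratio of the median of chromosome 5 beyond its amplified start (bins from mm9 position 14159646 to the end, 272 bins) to the median of chromosome 4 of the same nucleus. A ratio of 1.25 or more placed 13 of the 35 single 2N+ nuclei in the set called trisomic here, and the other 22 in the set called disomic, out of 96 libraries in the series. The question was what else differed between these nuclei, in the other autosomes and in the amplified start of chromosome 5 itself.

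Gain of a whole chromosome (trisomy) comes from missegregation in mitosis and changes the dose of all genes on that chromosome at once. Focal amplification raises a short stretch to many copies, and either kind of change can be passed on, so that cells sharing several borders and copy states form a lineage. Tumour lines often hold several such lineages in 1 culture.

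KPC1199EGFP is a pancreatic tumour cell line on a C57BL\6 background that expresses EGFP, and the cells were grown attached to the dish to passage 9 without treatment. Nuclei stained with DAPI were sorted by DNA content into a 2N, a 2N+ and a 4N gate (47, 35 and 12 single nuclei, and 2 bulk libraries), and their genomic DNA was amplified with the SeqXE kit and sequenced. All groups share this genotype, and all nuclei come from 1 culture as far as the labels say. The nuclei are therefore not replicates of a condition: no test was made, the SD gives the spread over nuclei, and the exact Clopper-Pearson 95% intervals of shares cover counting error only. The gate itself selects on total DNA, which can set the share of nuclei with a gain.

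Copies were computed as 2 times a bin's deposited ratio over the chromosome 4 median of the same nucleus. An independent search for the multiplier that brings all autosomal levels closest to whole numbers gave 2 copies of chromosome 4 in 35 of 35 nuclei. A doubling of all chromosomes would leave the ratios unchanged, so neither scale could show it. The deposited values are segment levels, so neighbouring bins are equal over long stretches, and read depth is unknown. Values for nuclei 22, 24 and 31, all disomic, rest on profiles cut into many segments, with 89, 81 and 68 breakpoints against a range of 8 to 33 in the other disomic nuclei and 11 to 39 in the trisomic ones. Disomic nucleus 30 also stood apart, with chromosomes 8 and 9 at 1.15 and 1.13 copies and chromosomes 2 and 3 at 4.56 and 4.63.

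The values that chose the sets left a wide gap. The ratio of chromosome 5 to chromosome 4 ran from 0.973 to 1.036 in the disomic nuclei and from 1.394 to 1.485 in the trisomic ones. In copies, chromosome 5 beyond the amplified start was at a median of 2.88 (2.79 to 2.97, SD 0.0627, n = 13) in the trisomic set and 2.02 (1.95 to 2.07, SD 0.0318, n = 22) in the disomic set. These levels are a description, since they define the sets.

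The extra copy was not always the same stretch. All 272 bins rounded to 3 copies in trisomic nuclei 1, 5, 13, 14, 16 and 32. In nuclei 8, 9, 15, 19 and 26 the part next to the amplified start was higher, as described below, and in nucleus 7 a stretch of 3 bins (chr5:116566273-117965240) was at 4.16 copies. In nucleus 28 the gain was broken by 6 bins at 1.99 copies (chr5:96371312-99266652) between 2.90 and 3.01 copies on either side. Among the disomic nuclei, number 27 carried 109 bins from position 99266653 to the end at 2.93 copies and the 163 bins before them at 2.05 copies, so it was trisomic for the distal part alone. The proximal border of that partial gain is the distal border of the gap in nucleus 28.

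**Figure D1:**
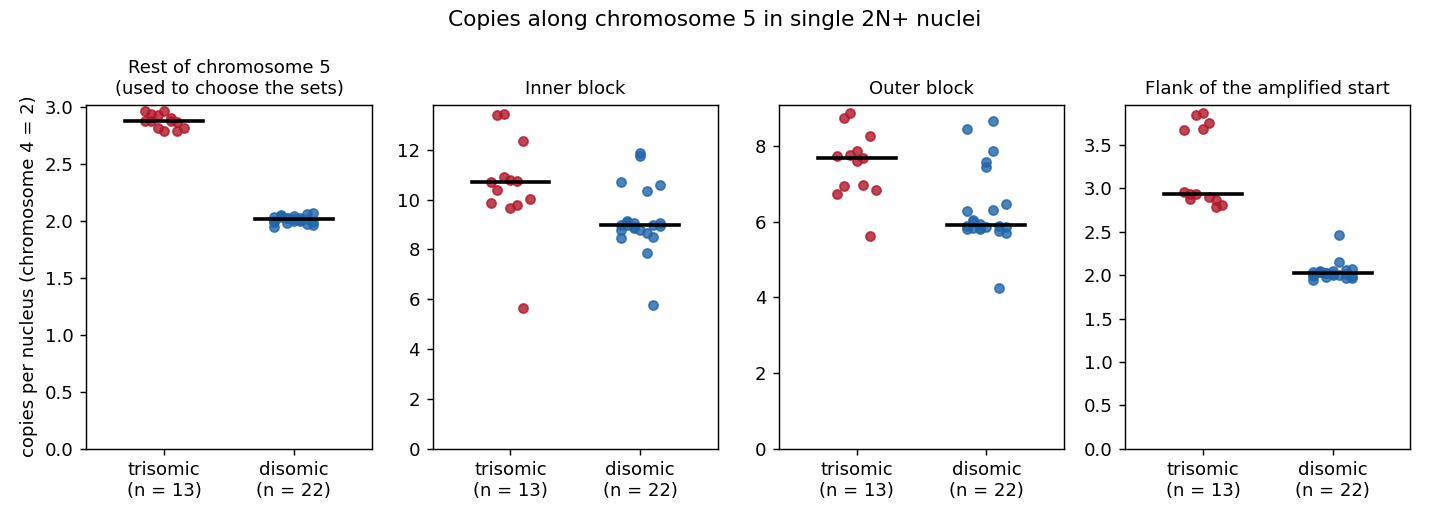
Copies of 4 stretches of chromosome 5 (vertical axes, chromosome 4 set to 2) in the 13 trisomic and 22 disomic nuclei of the 2N+ gate. Each point is a nucleus and each bar a median. The rest of chromosome 5 separates by construction, and the flank is part of that stretch, with its end taken from trisomic nuclei. The inner and outer blocks of the amplified start overlap between sets. Only trisomic nuclei reach 3.5 copies in the median over the bins of the flank. In disomic nuclei 10 and 31 the amplified segment covers its first 3 bins.

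The list of genes followed on chromosome 5 gives an idea of what travels with it. It holds Cdk6, a kinase that drives entry into the cell cycle, Abcb1a and Abcb1b, which encode drug efflux pumps, Kit and Pdgfra, receptor tyrosine kinases, Hgf, which encodes the ligand of the Met receptor, Pdx1, a transcription factor of the pancreas, and Brca2, a DNA repair gene. The list was written as genes of chromosome 5, so all 20 were found there in the gene table by choice. Of the 28 genes of a second list, of oncogenes and tumour suppressors, 0 lie there. That count does not mean that chromosome 5 lacks such genes, since its genes had a list of their own. That table is of another build (GRCm38.p6), so genes are given by chromosome and were not placed in bins or blocks.

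Over the 4069 autosomal bins outside chromosome 4 and the chosen stretch of chromosome 5, the median of the trisomic nuclei was at least 0.5 copies above that of the disomic nuclei in 157 bins (3.86%) and at least 0.5 copies below it in 0 bins (0%). All of the higher bins lay on 2 chromosomes. The amplified start of chromosome 5 gave 19 of them, which is every bin it has. Chromosome 2 gave 138. On the 16 other autosomes compared, with 3692 bins, 0 bins passed, and differences of medians ran from -0.263 to 0.167 copies.

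The amplified start (chr5:1-14159645, 19 bins) is made of an inner block of 5 bins (chr5:1-5715257) and an outer block of 14 bins (chr5:5715258-14159645). The inner block was at a median of 10.7 copies in trisomic nuclei (5.63 to 13.4, SD 1.96, n = 13) and 8.98 in disomic nuclei (5.78 to 11.9, SD 1.29, n = 22). The outer block was at 7.70 copies (5.63 to 8.87, SD 0.890) against 5.92 (4.24 to 8.68, SD 1.04). Median differences were thus 1.72 and 1.77 copies, and both sets overlap in both blocks. Group means differed by 1.40 and 1.17 copies.

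Most of the overlap came from few nuclei. The inner block reached 9.5 copies in 12 of 13 trisomic nuclei (92.3%, interval 64% to 99.8%) and in 5 of 22 disomic nuclei (22.7%, interval 7.82% to 45.4%). The same counts, 12 of 13 and 5 of 22, reached 6.5 copies in the outer block, though not in the same disomic nuclei. The disomic nuclei with a high inner block were 6, 22, 24, 30 and 35, at 11.9, 10.3, 10.6, 11.8 and 10.7 copies. Those with a high outer block were 6, 10, 25, 30 and 31, and in 10, 25 and 31 a single segment at 7.87, 8.46 and 8.68 copies covered both blocks. In nuclei 10 and 31 this segment ran on to position 15924369, over the first 3 bins of the chosen stretch. Both cutoffs were placed after the values were seen. The exception among trisomic nuclei was number 32, where 1 segment at 5.63 copies covered all 19 bins.

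Relative to the rest of its own chromosome, the amplified start was lower in the trisomic set. The inner block stood at a median of 3.63 times the rest of chromosome 5 in trisomic nuclei (2.02 to 4.58, SD 0.649) and 4.44 times in disomic nuclei (2.81 to 5.88, SD 0.641). The outer block stood at 2.67 times (2.02 to 3.03, SD 0.291) and 2.94 times (2.06 to 4.28, SD 0.519). The denominator is the value that chose the sets, so these ratios are a description. In nuclei 5, 7 and 13, at 4.56, 4.58 and 4.30 times for the inner block, the ratio lay near the disomic median, and in the other 10 trisomic nuclei it lay below it, from 2.02 to 3.87.

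The 13 trisomic nuclei fell into groups with different levels of the amplified start, shown here as a description because the groups were drawn from these levels. Nuclei 5, 7 and 13 had the inner block at 13.4, 13.4 and 12.3 copies and the outer block at 8.75, 8.87 and 8.27 copies. Nuclei 1, 14, 16 and 28 had the inner block at 9.86, 10.0, 10.4 and 9.77 copies and the outer block at 6.73, 6.84, 6.94 and 6.97 copies. The latter group thus lay 0.803 to 1.04 copies above the disomic median in the outer block, and the former 2.35 to 2.94 copies above it.

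Nuclei 8, 9, 15, 19 and 26 formed a separate group, in which the gain of chromosome 5 changed level within the chosen stretch. The 12 bins next to the amplified start (chr5:14159646-20483984, called the flank here) were at 3.87, 3.76, 3.67, 3.85 and 3.69 copies, and the remainder of the chromosome at 2.97, 2.88, 2.88, 2.81 and 2.79 copies. A step of 0.5 copies or more within 2 bins of position 20483985 was found in these 5 nuclei and in 0 of the 8 other trisomic nuclei, 0 of the 22 disomic nuclei and 0 of the 59 nuclei of the 2N and 4N gates. Their outer block was at 7.87, 7.70, 7.75, 7.77 and 7.61 copies, 1.68 to 1.94 above the disomic median. Their inner block was at 10.8, 10.7, 10.7, 10.9 and 9.68 copies. The end of the flank was taken from the trisomic nuclei and the group was drawn from its level, so the step counts are a description.

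**Figure D2:**
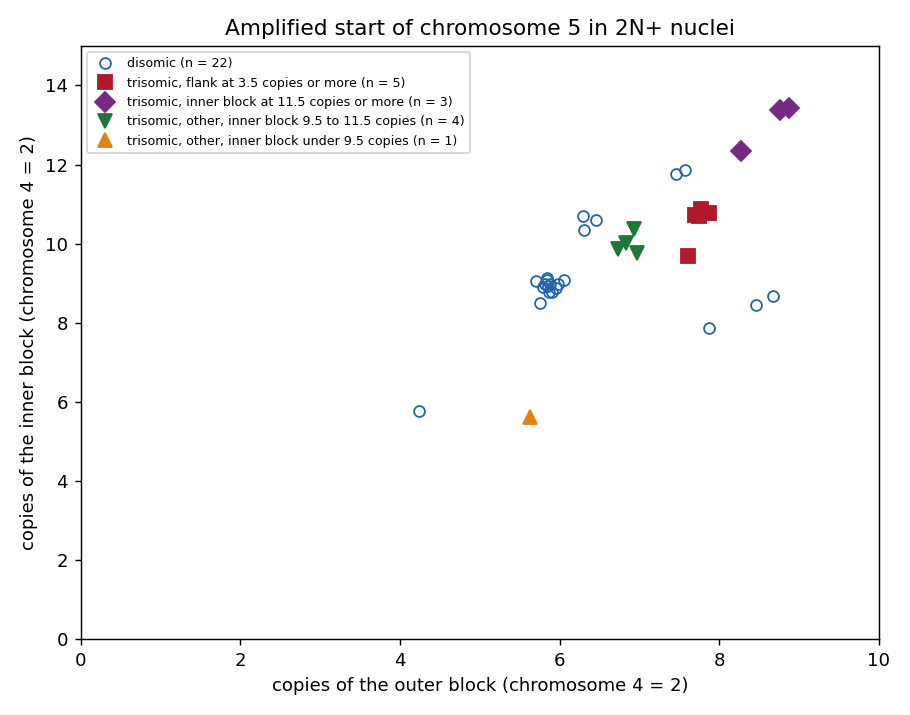
Copies of the inner block (vertical axis) against copies of the outer block (horizontal axis) of the amplified start of chromosome 5, chromosome 4 set to 2. Each symbol is a 2N+ nucleus: open circles are disomic, filled symbols are the trisomic nuclei split by the flank and the inner block. Most disomic nuclei sit near 5.92 and 8.98 copies, and nuclei 5, 7 and 13 sit at the upper right with 12.3 copies or more in the inner block.

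Chromosome 2 was the other place of difference, and it holds Notch1, a receptor of cell-to-cell signalling, among the listed genes. Its profile in most 2N+ nuclei was a high start, a lower inner segment and a higher remainder. The called bins formed 3 runs. In the start (chr2:1-14885853, 24 bins) the medians were 3.88 and 3.04 copies in trisomic and disomic nuclei. From chr2:15432404-24832582 (18 bins) they were 2.81 and 2.08, and from chr2:25296820-72037433 (96 bins) 2.88 and 2.06.

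These medians sit on sets that hold both states, and the runs did not carry equal weight. The parts of chromosome 2 used below have borders at the most frequent steps of the trisomic nuclei. The middle was thus cut to fit trisomic nuclei, and shares of these parts are a description. The middle of the inner segment (chr2:25296820-61434715, 74 bins) reached 2.5 copies in 12 of 13 trisomic nuclei (92.3%, interval 64% to 99.8%) and in 8 of 22 disomic nuclei (36.4%, interval 17.2% to 59.3%). Nucleus 32 was the trisomic exception, at 2.01 copies. The trisomic range was 2.01 to 3.01 (median 2.88, SD 0.254) and the disomic range 1.94 to 4.49 (median 2.06, SD 0.613). Without the nuclei of more than 60 breakpoints the shares differed by 50.2 percentage points, against 55.9 with them.

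To either side of that middle the sets were closer. The left part (chr2:14885854-25296819) and the right part (chr2:61434716-75743670) each reached 2.5 copies in 7 of 13 trisomic nuclei (53.8%, interval 25.1% to 80.8%) and 8 of 22 disomic nuclei (36.4%). The start reached 3.5 copies in 7 of 13 against 5 of 22 (22.7%), and so did the stretch beyond the inner segment in 6 of 13 (46.2%) against 6 of 22 (27.3%). With 7 of 13 nuclei just over the middle of the set, medians of these parts turn on single nuclei. Leaving out any 1 of nuclei 1, 5, 7, 13, 14 or 28 brought the count of higher bins from 157 to 94. With group means in place of medians 19 bins were called, the number of bins in the amplified start, and the mean of the middle part differed by 0.417 copies and that of the start by 0.410.

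**Figure D3:**
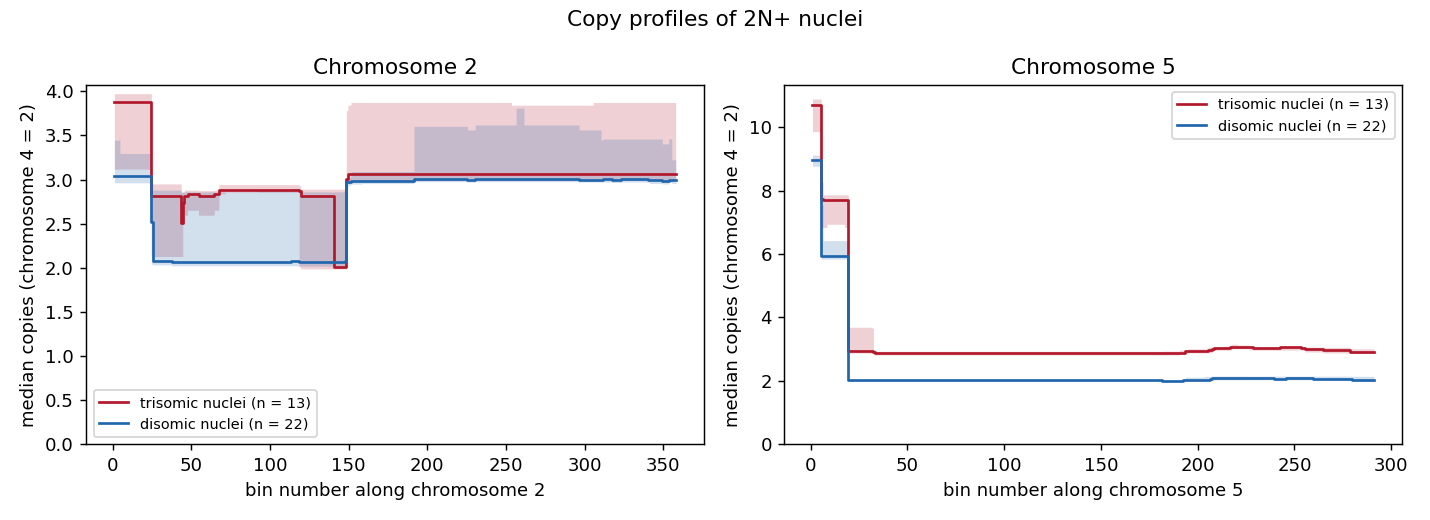
Median copies along chromosomes 2 and 5 (vertical axes, chromosome 4 set to 2) by bin number from the start of the chromosome, for the 13 trisomic and the 22 disomic nuclei of the 2N+ gate. Shading spans the first to the last quartile of nuclei. On chromosome 2 the sets part in the start and the inner segment (medians 3.88 against 3.04 and 2.88 against 2.06 copies), and on chromosome 5 they part throughout.

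The chromosome 2 pattern set apart the group with the raised flank and nucleus 32, but did not part the other groups seen on chromosome 5. In nuclei 8, 9, 15, 19 and 26 the middle was at 2.97, 2.88, 2.93, 2.87 and 2.84 copies, while the left part was at 2.17, 2.12, 2.13, 2.23 and 2.10 copies and the right part at 1.99, 1.92, 1.99, 1.99 and 1.97. The gain there was an island with a step on each side. Position 61434716 is a border chosen from the trisomic 2N+ nuclei. A step within 2 bins of it was found in these 5 nuclei and in 1 of the 22 disomic nuclei. In the 2N gate 1 of 6 trisomic and 0 of 41 disomic nuclei had such a step. On the left side, a step within 2 bins of position 25782041 was found in the same 5 nuclei, in nuclei 5 and 7, and in 1 of the 22 disomic nuclei. Within 2 bins of position 24832583, 2 of the 6 trisomic and 0 of the 41 disomic 2N nuclei had a step. The left step was therefore not particular to the group with the raised flank. In nuclei 1, 5, 7, 13, 14, 16 and 28 every part of the inner segment was raised. Medians of its parts were 2.81 to 3.28 copies, with the start at 3.88 to 4.10 copies. The level was not even in nuclei 5 and 7, which had the left step inside the segment. The stretch beyond the inner segment was at 2.97 copies in nucleus 14 and at 3.5 copies or more in the other 6. In nucleus 32 the chromosome had the common disomic form, with 3.05 copies in the start and 2.01 in the inner segment.

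Chromosome 5 apart, the medians of whole autosomes differed little. Chromosome 2 had the largest difference among them, 0.0823 copies (3.07 against 2.98), which was under the SD of 0.452 over the trisomic nuclei. Differences in the composition of the sets were then sought in the share of nuclei at each state. Chromosomes 2, 8, 11, 15, 17 and 19 reached 2.5 copies in 13 of 13 trisomic nuclei. In the disomic set the counts were 19, 20, 22, 18, 21 and 21 of 22. Chromosomes 7, 9 and 10 reached 2.5 copies in 0 nuclei of either set, for which the exact intervals reach 24.7% and 15.4%.

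Whole chromosome 2 reached 3.5 copies in 6 trisomic and 5 disomic nuclei (46.2% and 22.7%). Among the autosomes counted as gained (2.5 copies, or 3.5 for chromosome 3), chromosome 5 left out, the widest gap was that of chromosome 15, which carries Myc, a growth-driving transcription factor: 13 of 13 trisomic nuclei (100%, interval 75.3% to 100%) against 18 of 22 disomic nuclei (81.8%, interval 59.7% to 94.8%). The disomic nuclei at 2 copies were 22, 24, 25 and 30. Without the nuclei of more than 60 breakpoints the disomic share was 17 of 19 (89.5%), and the gap fell from 18.2 to 10.5 percentage points. Chromosome 3 reached 3.5 copies in 12 trisomic and 18 disomic nuclei. The trisomic nucleus without it was number 32, at 3.06 copies.

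Chromosome 6, home of Met, Braf and Ezh2, was at 2 copies only in trisomic nuclei 1 and 8 (2.10 and 2.12 copies). The other 11 trisomic and all 22 disomic nuclei had 2.92 copies or more. Met and Braf encode a growth factor receptor and a kinase of growth signalling, and Ezh2 encodes a histone methyltransferase. Disomic nuclei 25 and 30 were at the upper end, with 3.96 and 3.83 copies, and 0 trisomic nuclei reached 3.5. The difference of means for this chromosome was -0.216 copies, and that of medians 0.00425.

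Chromosome 19 reached 3.5 copies in 2 of 13 trisomic nuclei, numbers 5 and 7 at 3.87 and 3.81 copies, and in 0 of 22 disomic nuclei (interval up to 15.4%). Its mean was 0.165 copies higher in the trisomic set. Chromosome 18, with Smad4 and Gata6, a mediator of TGF-beta signalling and a transcription factor of the pancreas, went the other way at its upper end. It reached 3.5 copies in 0 of 13 trisomic nuclei and in disomic nuclei 12, 17, 29 and 30 (4 of 22, 18.2%, interval 5.19% to 40.3%), at 3.75 to 3.88 copies. Nuclei 5 and 7 had it at 2.06 and 2.08 copies. Gains of chromosome 16 were seen in 9 trisomic and 13 disomic nuclei (69.2% and 59.1%), with intervals of 38.6% to 90.9% and 36.4% to 79.3%.

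**Figure D4:**
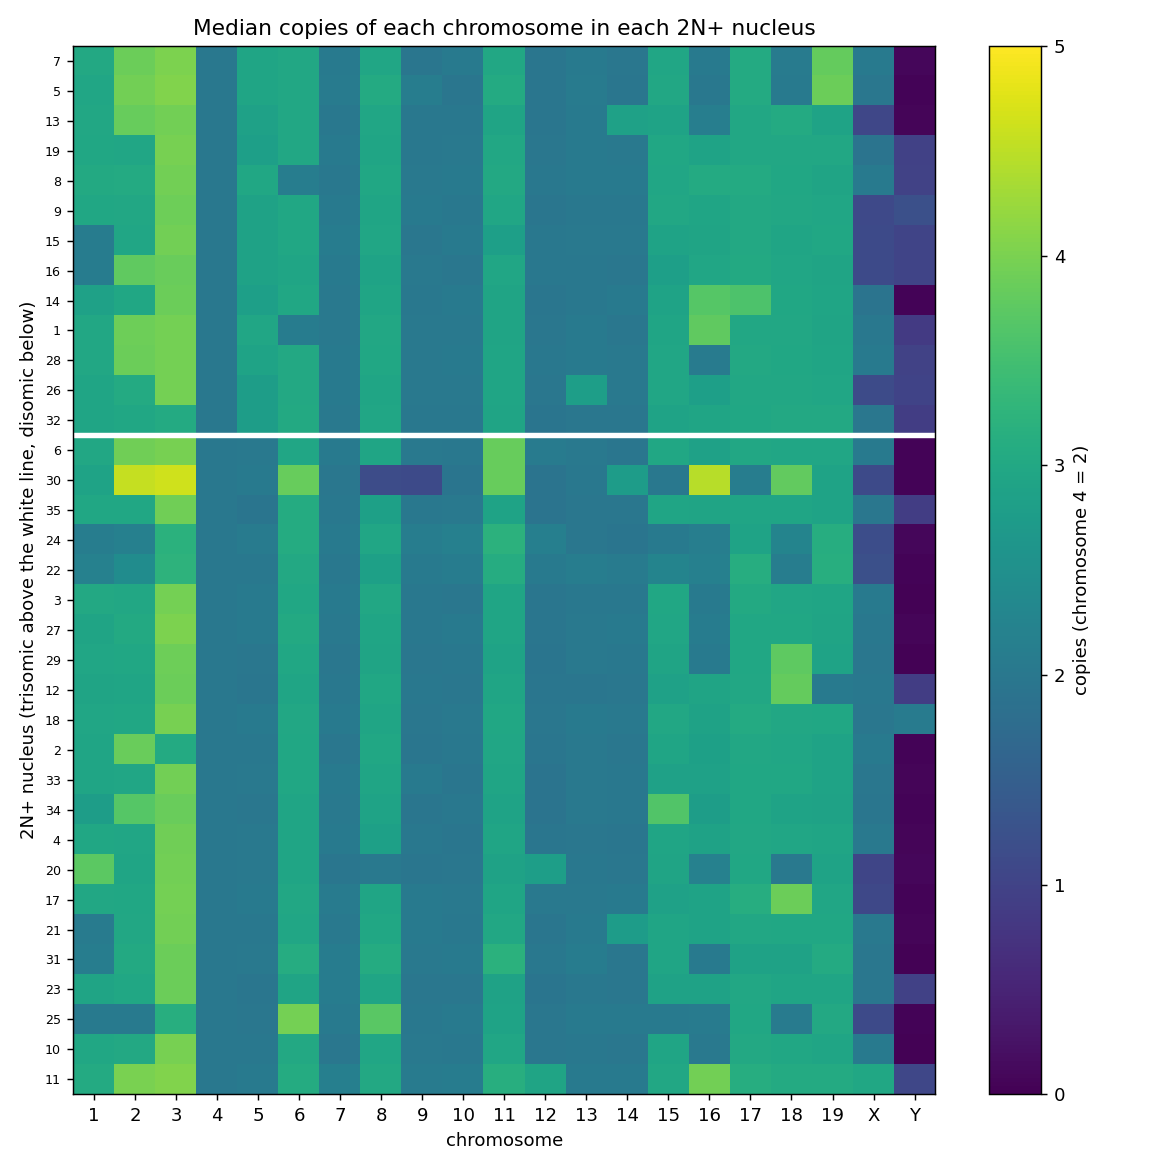
Median copies (colour, chromosome 4 set to 2) of each autosome, X and Y (columns) in each of the 35 nuclei of the 2N+ gate (rows), trisomic nuclei above the white line, each set ordered by the inner block of chromosome 5. Chromosome 5 differs by construction, most other columns look alike in both sets, and the Y column is brighter in 9 of 13 trisomic nuclei than in 17 of 22 disomic ones.

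The sex chromosomes were outside the bins compared and were examined after the rest. Chromosome Y, read from 3 bins, reached 0.5 copies in 9 of 13 trisomic nuclei (69.2%, interval 38.6% to 90.9%) and in 5 of 22 disomic nuclei (22.7%, interval 7.82% to 45.4%). Levels left a gap: nuclei with it were at 0.845 to 1.23 copies in the trisomic and 0.914 to 2.07 in the disomic set, and nuclei without it at 0.0936 or less. The trisomic nuclei without Y were 5, 7, 13 and 14. All 5 nuclei with the raised flank had it, at 0.982, 1.23, 1.02, 0.973 and 0.997 copies. Chromosome X reached 1.5 copies in 8 trisomic and 16 disomic nuclei. A Y together with a single X was found in 4 trisomic nuclei (9, 15, 16 and 26) and in 0 disomic nuclei.

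**Figure D5:**
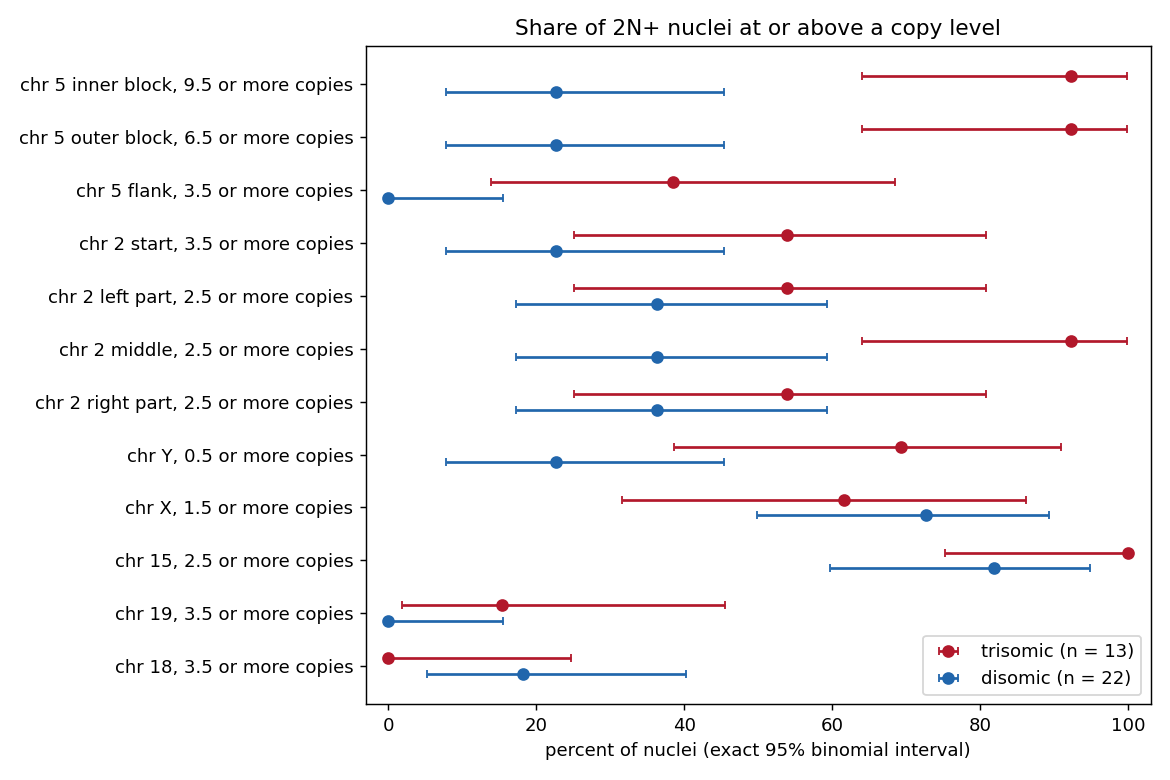
Percent of nuclei (horizontal axis) at or above a copy level for 12 stretches or chromosomes, in the 13 trisomic and 22 disomic nuclei of the 2N+ gate. Points are shares and bars exact 95% binomial intervals, which cover counting error only. The inner and outer blocks of chromosome 5 and the middle of chromosome 2 lie at 92.3% in trisomic nuclei and at 22.7% to 36.4% in disomic nuclei. Borders of the chromosome 2 parts were taken from steps of the trisomic nuclei.

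Total content outside chromosome 5 was close in the 2 sets. The mean over autosomal bins without chromosome 5 was at a median of 2.67 copies (2.58 to 2.72, SD 0.0425) in trisomic nuclei and 2.61 copies (2.399 to 2.85, SD 0.109) in disomic nuclei. With chromosome 5, the means over nuclei were 2.70 and 2.61. The median number of breakpoints was 21 (11 to 39) against 19 (8 to 89), and that of steps of 0.5 copies or more 13 (5 to 20) against 7.5 (3 to 74). Means ran the other way, at 21.4 against 27 breakpoints and 12.2 against 15.95 steps, with the fragmented profiles of nuclei 22, 24 and 31 in the disomic set. The sort on DNA content bounds these totals in both sets, and its part in them was not tested.

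Rounded copies of chromosomes 1 to 19 formed 11 different sets of states in the 13 trisomic nuclei and 15 in the 22 disomic nuclei. Leaving chromosome 5 out, 1 set of states was found on both sides, in trisomic nuclei 9 and 19 and in disomic nuclei 4, 18, 23, 33 and 35. Among the autosomes, these 7 nuclei differed by rounded state in chromosome 5 alone. They differed in X and Y, with X at 1.10 copies in nucleus 9 and between 1.93 and 2.02 in the others, and Y from 0.0610 copies in nucleus 4 to 2.07 in nucleus 18. Within autosomes they also differed, since nuclei 9 and 19 had the flank and the island on chromosome 2 described above, and the 5 disomic nuclei had the middle of chromosome 2 at 2.96, 2.03, 1.99, 2.95 and 2.03 copies and the inner block of chromosome 5 at 8.90, 8.99, 8.50, 8.98 and 10.7 copies.

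The same split was made in the other gates. In the 2N gate 6 of 47 nuclei were trisomic, and their inner and outer blocks were at 12.7 to 14.2 and 8.32 to 9.64 copies, against medians of 8.89 and 5.99 in the 41 disomic nuclei. There 855 bins (21%) were higher and 254 (6.24%) lower, including all bins of chromosomes 2, 15 and 19 on the higher side and all of chromosome 18 on the lower. Chromosome Y was at 0.0548 copies or less in all 6. In the 4N gate 2 of 12 nuclei were trisomic, with the inner block at 9.63 and 11.9 copies, and 801 bins (19.7%) were higher and 78 (1.92%) lower. The multiplier put chromosome 4 at 2 copies in 8 of those 12 nuclei, so copies are less certain there. It cannot show a doubling of all chromosomes, so copies in this gate are levels relative to chromosome 4 set to 2.

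By group medians, the trisomic nuclei of the 2N gate thus differed from their disomic neighbours in more bins than those of the 2N+ gate did. Whether the make-up of the compared sets of nuclei plays a part in that was not tested. Of the 6 trisomic 2N nuclei, 5 shared 1 set of rounded states, and the 13 trisomic 2N+ nuclei formed 11 sets. The 41 disomic 2N nuclei formed 20 sets. These counts come from groups of different size and cannot be compared directly. Each trisomic 2N+ nucleus was placed against the midpoints of the 8 regions outside chromosome 5 called in the 2N gate. Nuclei 5 and 7 lay on the side of the 2N trisomic nuclei in 8 of 8 regions and nucleus 13 in 6 of 8. The other 10 lay there in 2 to 4 of 8, and the 22 disomic nuclei in 1 to 5 (median 2). Of these regions, 2 were on that side in most disomic nuclei as well, the start of chromosome 8 in 17 and chromosome 15 in 18 of 22. Nuclei 5, 7, 13 and 32 also had a step on chromosome 8 within 2 bins of position 92888712, which 0 of the 22 disomic nuclei had and 4 of the 6 trisomic and 1 of the 41 disomic nuclei of the 2N gate had. In the 4N gate 2 of 2 trisomic and 2 of 10 disomic nuclei had it. The difference between the gates was not tested.

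A bulk library of the 2N+ gate gave a ratio of chromosome 5 to chromosome 4 of 1.13, against a mean of 1.17 (SD 0.213, n = 35) over the single nuclei. Its inner and outer blocks were at 10.1 and 6.84 copies, against nuclear means of 9.70 and 6.78, and chromosome Y at 0.475 copies against 0.459.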

How the data were processed

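Single nuclei and bulk samples were measured by whole-genome sequencing after SeqXE amplification, per the labels' protocols. The submitters' processing notes name Bowtie 1.0 and mm9. How bins and segments were made is not given in the sources used here. Linear ratios, kept here under the unit other, were deposited by the authors for 4906 bins and 96 libraries. Library means were 0.994 to 1.095. Long runs of neighbouring bins share 1 value, as segment levels do, and read depth is unknown.

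Members, lists and comparisons were chosen with earlier results of these data known. Copies were 2 times the ratio over the chromosome 4 median of the nucleus. A bin was called where group medians differed by 0.5 copies or more. A gain was 2.5 copies or more (3.5 for chromosome 3). Breakpoints are changes of level between neighbouring bins of an autosome. The design's rule named the 6 autosomes with the largest difference of medians or means (2, 6, 15, 16, 18 and 19), the amplified start and every run of at least 5 called bins. Other nuclei, blocks and chromosomes were named after their values were seen. Borders of the chromosome 2 parts are the most frequent steps of the trisomic 2N+ nuclei. The inner and outer blocks part at the largest step in the median profile of all 2N+ nuclei. The flank ends at the nearest step down of 0.5 copies or more in a trisomic 2N+ nucleus. Multipliers from 1.5 to 6 were tried, 0.05 apart. Positions count from 1 and a bin ends where the next begins.

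The table was read with Python 3.11.15, numpy 2.4.6 and pandas 2.3.3, and exact intervals came from scipy 1.17.1. Functions were tested on simulated data. Alternatives were the split, the copy scale, the call size, means for medians, leaving out nuclei with more than 60 breakpoints, and leaving out each nucleus. Not every gene followed is reported here.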

Additional observations from a re-analysis of the deposited data

Results flagged for a closer look

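Nuclei of the sets set beside the 2N+ gate were examined for values far from the rest of their set. This was done in 18 combinations of set and measure. The rule flags about 1 in 20 sets of independent, normally spread values. Copies here sit near whole numbers, and chromosomes of 1 nucleus are not independent draws. That rate therefore does not hold here, and the flags are a description. Among the 6 trisomic nuclei of the 2N gate, nucleus 29 stood apart on 4 chromosomes: chromosome 3 at 3.90 copies against 2.98 to 3.22 in the others, chromosome 14 at 2.83 against 1.93 to 2.10, chromosome 18 at 2.91 against 2.05 to 2.19, and chromosome 19 at 2.96 against 3.74 to 4.03. Nucleus 7 of that set had chromosome 15 at 3.18 copies against 2.80 to 2.94. Among the 10 disomic nuclei of the 4N gate, nucleus 7 had both blocks of the amplified start at 2.45 copies, against 7.13 to 10.1 copies in the inner and 5.85 to 7.13 copies in the outer block of the others. Nucleus 3 of that set had chromosome 14 at 1.55 copies against 1.92 to 2.04. The sets of 13 and 22 nuclei of the 2N+ gate are too large for this rule.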

How the results depend on the processing

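Across 529 values of 48 results under alternatives, 522 stayed within the spread of nuclei, the interval, or 1.5 times the count. Of differences of 0.5 copies or more, 0 turned sign. These bounds are wide: for the inner block the spread is 1.96 copies against a difference of 1.72. A value could fall to 0 and stay within such a bound, so the count of 522 does not measure stability. Smaller differences turned sign in 10 values, all of single chromosomes, of which the gains of chromosomes 1 and 18 went to -4.86 percentage points without the nuclei of more than 60 breakpoints. Means and medians were opposed in sign for breakpoints, steps and chromosomes 6, 12, 14 and 18. The values outside these bounds all concern the bins higher in trisomic nuclei. With group means there were 19 in place of 157, and leaving out 1 nucleus at a time gave 94 to 158, with 94 on leaving out nucleus 1, 5, 7, 13, 14 or 28. A split of 1.2 or 1.3 gave the same 13 nuclei. Leaving out 1 nucleus moved the median difference of the whole amplified start between 1.73 and 1.80 copies, as it did that of the outer block. For the inner block it moved between 1.56 and 1.74 copies. The gap in shares of nuclei moved between 54.2 and 63.6 percentage points for the middle of chromosome 2. For chromosome Y that gap moved between 43.9 and 52.3. These 2 gaps, the differences of the inner and outer blocks and the shares of blocks were added after seeing the data. No paired analysis was possible because a replicate number here is just the name of a nucleus, and nothing was fitted. Segment levels hide short changes, and 1 culture gives no spread between cultures.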
